A study of Mus musculus with 13 samples.

Results

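The core clock genes Arntl, Clock, Npas2, Per1, Per2, Per3, Cry1 and Cry2 were followed in adipose tissue on 12 arrays in 5 groups. Members were the genes of the transcriptional core of the mammalian clock, and each was found through the transcript accession of its probe. All 8 had 1 probe with 1 spot each, among 19752 named genes on the array. White adipose tissue (WAT) came from Fv2E-PERK mice given AP20187 (3 arrays), Fv2E-PERK mice given vehicle (2) and untreated wild-type mice (3), and brown adipose tissue (BAT) came from Fv2E-PERK mice given AP20187 (2) or vehicle (2). All samples are labelled as male C57BL/6J mice. Fv2E-PERK joins the kinase domain of PERK, a kinase of the endoplasmic reticulum stress response, to a domain that the ligand AP20187 dimerises. Injection was intraperitoneal, with 100 ng/g AP20187 or with a vehicle of ethanol, PEG-400 and Tween-20 in water, and tissue was taken after 12 h. The time of day, the age of the mice and the diet are not given in the sources used here, and the series title names the line mAP::Fv2E-PERK without spelling out what drives the transgene. No wild-type group received AP20187 or vehicle, so the transgene and the injection cannot be told apart in any comparison with wild type, nor can the ligand and the kinase it dimerises in the other comparisons. Whether each array is a mouse of its own is not stated, so p-values here measure the spread between arrays, which may be technical.

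The mammalian clock is a loop of transcription factors. ARNTL (also called BMAL1) pairs with CLOCK or its paralog NPAS2 and switches on genes with E-boxes, among them the Per and Cry genes, whose proteins then repress the pair. A second loop acts on Arntl, which the REV-ERB receptors (Nr1d1, Nr1d2) repress and the ROR receptors activate through ROR elements. In the D-box loop DBP, TEF and HLF activate and NFIL3 represses. In tissues with a running clock, fat included, Arntl and the Per genes peak at opposite times of day.

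The promoters show where the letters of these loops lie, and they were not used in the comparisons below. RefSeq promoter windows, each running from 250 bases before to 50 after a transcript start on GRCm38.p6, were matched for 7 of the 8 genes, all but Per2, in 11 windows. Both strands were searched for the E-box CACGTG, the D-box TTATGTAA, the ROR element core TAGGTCA, the cyclic AMP element TGACGTCA and the ATF4 element TGATGNAAN, where no pair of matches overlapped in the windows printed. Capitals mark the match to the element named beside each gene.
Per3, D-box, chr4:151044616-151044915, minus strand: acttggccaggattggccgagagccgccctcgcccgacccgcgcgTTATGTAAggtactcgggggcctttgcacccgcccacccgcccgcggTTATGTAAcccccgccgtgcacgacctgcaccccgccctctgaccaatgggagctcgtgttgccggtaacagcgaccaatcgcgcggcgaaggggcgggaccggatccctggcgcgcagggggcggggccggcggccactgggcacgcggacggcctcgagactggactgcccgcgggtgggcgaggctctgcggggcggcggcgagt
Per1, E-box, chr11:69098699-69098998, plus strand: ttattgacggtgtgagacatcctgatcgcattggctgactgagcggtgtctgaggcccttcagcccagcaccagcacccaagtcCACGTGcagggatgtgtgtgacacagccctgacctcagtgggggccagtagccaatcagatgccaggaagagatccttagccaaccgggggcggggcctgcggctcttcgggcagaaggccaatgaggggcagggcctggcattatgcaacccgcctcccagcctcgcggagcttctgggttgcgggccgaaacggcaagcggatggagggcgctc
Cry1, E-box, chr10:85185005-85185304, minus strand: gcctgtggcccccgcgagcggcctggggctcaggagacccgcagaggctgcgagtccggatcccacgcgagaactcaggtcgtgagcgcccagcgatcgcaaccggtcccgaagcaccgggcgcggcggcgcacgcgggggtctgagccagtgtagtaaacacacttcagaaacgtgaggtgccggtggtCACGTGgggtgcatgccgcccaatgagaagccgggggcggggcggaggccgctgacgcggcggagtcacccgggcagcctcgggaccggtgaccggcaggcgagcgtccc
Arntl, ROR element, chr7:113207261-113207560, plus strand: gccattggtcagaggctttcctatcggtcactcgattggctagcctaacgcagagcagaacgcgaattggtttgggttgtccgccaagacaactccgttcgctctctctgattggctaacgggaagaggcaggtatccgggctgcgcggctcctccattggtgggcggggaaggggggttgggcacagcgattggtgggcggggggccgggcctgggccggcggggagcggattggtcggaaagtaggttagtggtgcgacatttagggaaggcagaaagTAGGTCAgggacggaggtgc
Per3 held 2 D-boxes, which began at -205 and -158 from the transcript start. An E-box began at -166 in the first of the Per1 windows and at -60 in Cry1, and the ROR element core began 30 bases after the start in 1 of the 2 Arntl windows. Of all 32851 promoter windows, 0.938% held that D-box, 7.15% the E-box and 2.61% the ROR core. The windows of Clock, Npas2 and Cry2 held none of the 5 strings. The cyclic AMP element and the ATF4 element occurred in 0 of the 7 genes, against 1.79% and 3.95% of all windows. A match describes letters only, and these windows are short.

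Levels are log2 processed signals minus the 75th percentile of the array, so 0 is the brightness at that percentile, and levels are compared between arrays and not between probes. A probe counts as detected where the scanner software called it well above background. Arntl, Clock, Per1, Cry1 and Cry2 were detected on all 12 arrays, Per2 and Per3 on 10, and Npas2 on 4. All 8 probes passed the filter on dim signal, Npas2 through the WAT vehicle group alone, and no spot of a member was saturated, missing or in an area of weak signal. The tissue labels were set against marker genes. Ucp1, the uncoupling protein that defines brown fat, lay at 9.87 to 10.63 on the BAT arrays and at -7.23 to -3.41 on the WAT arrays, and Adipoq, an adipocyte hormone, at 8.25 to 9.46 on all 12. The protocol text speaks of muscles; the mean of 6 skeletal muscle markers was 0.59 to 4.80 on BAT arrays and -3.91 to -0.77 on WAT arrays. Eif2ak3, the gene of PERK, lay between 0.89 and 1.40 on all 12 arrays, and where its probe lies relative to the transgene is not known. One further array, whose title and source name give different tissues, is in no group.

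Arrays of 1 WAT group were not alike, which touches every WAT value below. The mean level of 9 epididymis markers was 9.03, 0.34 and -4.66 on AP20187 arrays 1, 2 and 3, against -5.18 and -5.53 with vehicle and -4.10, -4.98 and -1.77 in wild type. On AP20187 array 1 the mean of 5 endothelial markers was -0.14, against 2.03 to 2.39 on the other WAT arrays, and that of 4 macrophage markers was 1.13. The vehicle arrays differed as well: the mean of 6 liver markers was 5.21 on vehicle array 2, the array on the slide of the AP20187 arrays, and 1.17 on vehicle array 1, beside 0.83 to 2.67 with AP20187 and 0.03 to 2.05 in wild type. Detected spots made up 49.0% to 51.5% of the AP20187 arrays, 61.2% and 64.0% of the vehicle arrays and 57.9% to 60.6% of the wild-type arrays. AP20187 array 3, with the lowest epididymis level of these 3, is given separately where a result rests on the others. The arrays also lie on 3 slides, with the AP20187 WAT arrays beside vehicle array 2, wild type beside vehicle array 1, and all BAT arrays together.

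The first comparison asked how the clock genes differed in WAT after AP20187. Per2, a repressor of the CLOCK:ARNTL pair, was lower, and Per3, its paralog, had a difference of similar size without passing the test. The other 6 genes did not pass, with changes between -0.38 and 0.41. The level of Per2 was -4.29, -4.21 and -3.17 on the AP20187 arrays, against -0.98 and -1.28 with vehicle. AP20187 arrays 1 and 2 were not detected and array 3 was, and all 3 lay below both vehicle arrays. Per2 fell by 2.76 on the log2 scale (SE 0.49, 95% interval -3.86 to -1.66), a 6.76-fold lower signal, with adjusted p = 0.0459 in limma. Adjusted p under 0.05 is the threshold throughout. Because undetected spots have only a bound, the difference was also taken with dim values raised to the lowest detected signal of their array, which gave -2.56. With AP20187 array 3 as the only treated array it was -2.04, with adjusted p = 0.126 in a fit that takes the spread from the other groups and assumes that the lone array varies like them.

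The level of Per3 was -6.32, -5.72 and -4.15 on the AP20187 arrays, against -2.66 and -3.21 with vehicle. Again only AP20187 array 3 was detected, and the groups did not overlap. The log2 change was -2.46 (SE 0.57, 95% interval -3.76 to -1.16) with adjusted p = 0.0582, just outside the threshold. Raising the dim values to the floor brought it to -1.09, and array 3 alone gave -1.22. The size for Per3 therefore rests largely on undetected spots.

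Per1, the third Period gene, was detected everywhere. Its level was 3.30, 2.96 and 3.02 with AP20187, against 3.44 and 3.51 with vehicle. The groups did not overlap, but the change of -0.38 (SE 0.51, 95% interval -1.54 to 0.78) had adjusted p = 0.67. The Cryptochromes, partners of the PER proteins in repression, showed overlapping groups. Cry1 was at -2.73, -1.50 and -2.05 with AP20187, against -2.88 and -2.13 with vehicle, a change of 0.41 (95% interval -0.74 to 1.57). Cry2 was at 3.11, 4.03 and 3.81 with AP20187, against 3.85 and 4.11 with vehicle, a change of -0.33 (95% interval -0.97 to 0.32).

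The activators overlapped as well. Arntl was at 1.50, 2.35 and 2.36 with AP20187, against 1.79 and 1.83 with vehicle. Its change was 0.26 (SE 0.43, adjusted p = 0.731), with AP20187 array 1 the lowest of the 5 and arrays 2 and 3 the highest. Clock was at 1.09, 1.98 and 1.87 with AP20187, against 1.39 and 1.50 with vehicle, with the same arrays lowest and highest, and a change of 0.20 (SE 0.26, adjusted p = 0.661). Npas2 was at -4.86, -4.45 and -3.88 with AP20187, the first 2 undetected, against -3.82 and -4.81 with vehicle, and its change of -0.08 had an interval from -1.74 to 1.58. In bulk tissue fewer cells of a type and less RNA per cell cannot be told apart.

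Of the 8 genes 1 was called lower and 0 higher, where 0.491% of all 24445 features were called lower and 2.25% in either direction. The groups did not overlap for 3 of the 8, the Period genes, all lower with AP20187. Among all features 38.5% did not overlap in either direction, near the members' share, and 12.3% were lower without overlap. The median change of the 8 was -0.20, beside 0.15 over all features. The median over all features was -0.16 when arrays were scaled on probes detected on every array, and Per2 was at -3.06 there. AP20187 arrays minus the vehicle array of their own slide gave -2.61 for Per2 and -2.19 for Per3, and minus the vehicle array of the other slide -2.91 and -2.74. The part of the epididymis, liver and other cell markers in these values was not tested.

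**Figure D1:**
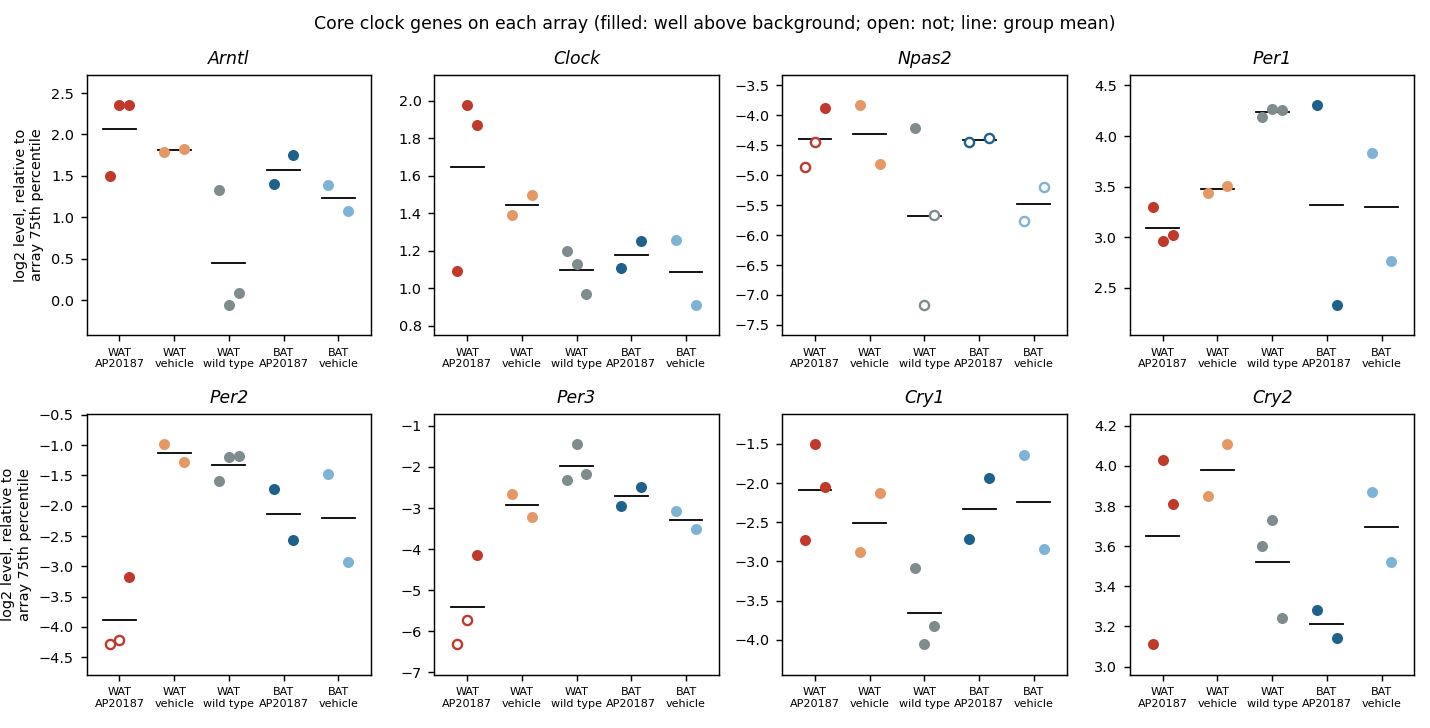
Log2 level of each core clock gene on each of the 12 grouped arrays, relative to the 75th percentile of the array, by group; each point is 1 array, filled where the probe was well above background and open where not, and lines are group means. Per2 and Per3 lie lowest on the 3 WAT arrays with AP20187, Arntl spans 1.39 in wild-type WAT, and Per1 spans 1.98 in BAT with AP20187.

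The same injection was compared in BAT. No core clock gene was called there, and neither Per2 nor Per3 was lower. Per2 was at -1.73 and -2.56 with AP20187, against -1.48 and -2.93 with vehicle, so the vehicle arrays lay on both sides of the treated ones. Its change was 0.06 (SE 0.53, 95% interval -1.15 to 1.27). Per3 was at -2.95 and -2.48 with AP20187, against -3.08 and -3.50 with vehicle, and its change of 0.58 (95% interval -0.84 to 2.0) was upward. Per1 was at 4.31 and 2.33 with AP20187, against 3.83 and 2.77 with vehicle, the widest spread of any member within a BAT group. That spread left an interval of -1.25 to 1.29 around a change of 0.02.

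Cry2 had 3.28 and 3.14 with AP20187, against 3.87 and 3.52 with vehicle, and the change of -0.49 had adjusted p = 0.832. Cry1 overlapped, at -2.71 and -1.94 with AP20187 and -1.64 and -2.84 with vehicle. Arntl had 1.40 and 1.75 with AP20187, against 1.39 and 1.08 with vehicle, a change of 0.34 (SE 0.47, adjusted p = 0.99). Clock had 1.11 and 1.25 with AP20187 and 1.26 and 0.91 with vehicle. Npas2 was undetected on all 4 BAT arrays, so no change is given. In limma 0 of the 8 genes passed and 0 had an unadjusted p under 0.05, where 0.00818% of all features passed and 7.38% had such a p. Of the 7 genes detected in BAT, 3 did not overlap between the groups (Arntl, Per3 and Cry2), beside 37.3% of all features. Skeletal muscle markers differed between the BAT arrays, with means of 4.03 and 3.08 with AP20187 and 0.59 and 4.80 with vehicle, and their part in the spread of Per1 and the other members was not tested.

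Whether WAT and BAT differed in their response was tested as the difference of the 2 changes. For Per2 the WAT change minus the BAT change was -2.82 (SE 0.72, 95% interval -4.45 to -1.18), with adjusted p = 0.141. For Per3 it was -3.04 (SE 0.85, 95% interval -4.97 to -1.12), with adjusted p = 0.149. Arntl, Clock, Per1, Cry1 and Cry2 had differences between -0.40 and 0.50, and none is given for Npas2, which was undetected in BAT. Neither Per gene passed the threshold over all features, and 0.0% of features did, so a different response of the tissues is not shown by this test. The WAT and BAT responses use separate vehicle arrays, on separate slides.

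**Figure D2:**
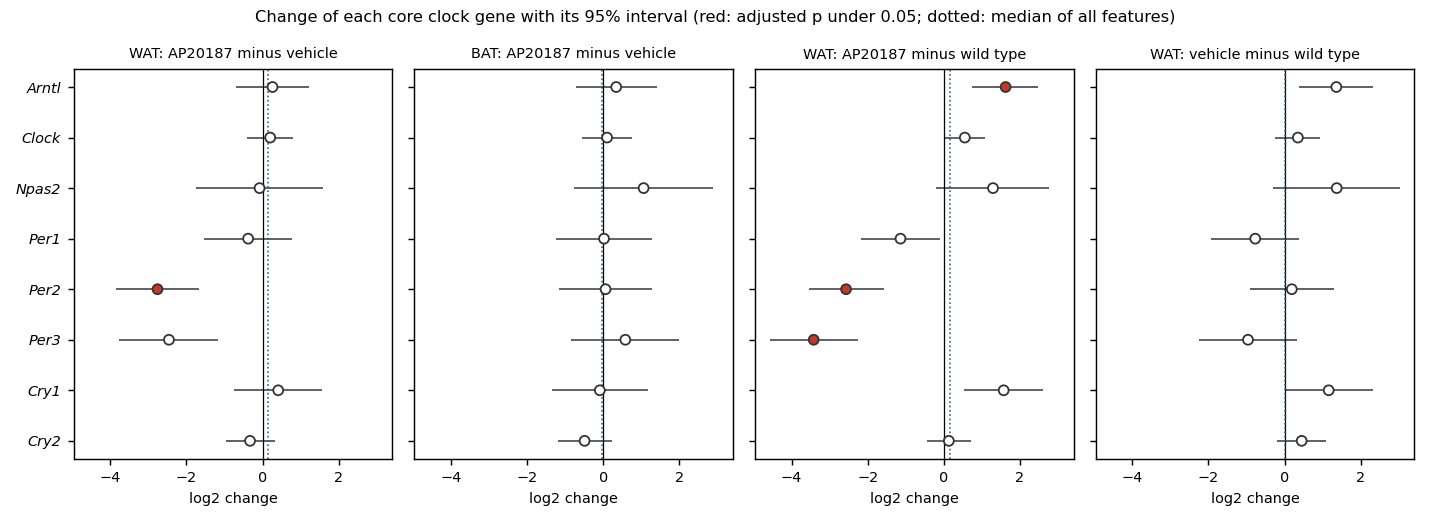
Log2 change of each core clock gene (horizontal axis) in 4 comparisons, with 95% intervals from limma; red points have adjusted p under 0.05 and the dotted line is the median change of all features. Per2 is at -2.76 and Per3 at -2.46 in WAT with AP20187 against vehicle, and at 0.06 and 0.58 in BAT; Npas2 was undetected on all BAT arrays, so its BAT point is no measured change.

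AP20187-treated WAT was also set against untreated wild-type WAT. No slide holds arrays of both groups, so group and slide cannot be told apart in this direct comparison. This comparison shares the AP20187 arrays with the first, so it is no independent check of it. Per2 and Per3 were lower and Arntl, the shared partner of CLOCK and NPAS2, was higher. Per2 was at -4.29, -4.21 and -3.17 with AP20187, against -1.59, -1.19 and -1.18 in wild type. Per2 fell by 2.57 (SE 0.43), a 5.93-fold lower signal, with adjusted p = 0.0262. Per3 was at -6.32, -5.72 and -4.15 with AP20187, against -2.33, -1.44 and -2.16 in wild type. It fell by 3.42 (SE 0.51) with adjusted p = 0.0262. For both genes only 1 of the 3 AP20187 arrays was detected, and the groups did not overlap. With dim values at the floor these falls were -2.37 and -2.04.

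Arntl was at 1.50, 2.35 and 2.36 with AP20187, against 1.33, -0.06 and 0.09 in wild type. The lowest AP20187 array lay just above the highest wild-type array. Its rise was 1.62 (SE 0.38), 3.07-fold, with adjusted p = 0.0378. Cry1 was at -2.73, -1.50 and -2.05 with AP20187, against -3.09, -4.06 and -3.83 in wild type, and differed by 1.57 (SE 0.46, adjusted p = 0.0632). Per1 was at 3.30, 2.96 and 3.02 with AP20187, against 4.19, 4.27 and 4.26 in wild type. It differed by -1.14 (SE 0.46, adjusted p = 0.14). Clock, at 1.20, 1.13 and 0.97 in wild type, differed by 0.55 (adjusted p = 0.167). Cry2, at 3.60, 3.73 and 3.24, and Npas2, at -4.21, -7.17 and -5.67 with only the first detected, had adjusted p = 0.767 and 0.233. Of the 8 genes 3 were called, beside 8.88% of all features. One of them was higher and 2 were lower, beside 7.22% and 1.66% of all features. In all 6 had an unadjusted p under 0.05, beside 28.6% of all features. The groups did not overlap for 5 of 8, beside 38.1% of all features.

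These calls were not stable to single arrays. With any wild-type array or AP20187 array 2 left out, 0 of the 8 genes passed in this comparison, and with AP20187 array 1 left out 5 passed. Per2 in the comparison with vehicle passed without AP20187 array 1 or array 3 and missed the threshold with any other array left out, with log2 changes between -3.12 and -2.56. Array 3 alone against wild type gave differences of -1.85 for Per2, -2.17 for Per3 and 1.91 for Arntl, which have no replicate check of the treated side.

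**Figure D3:**
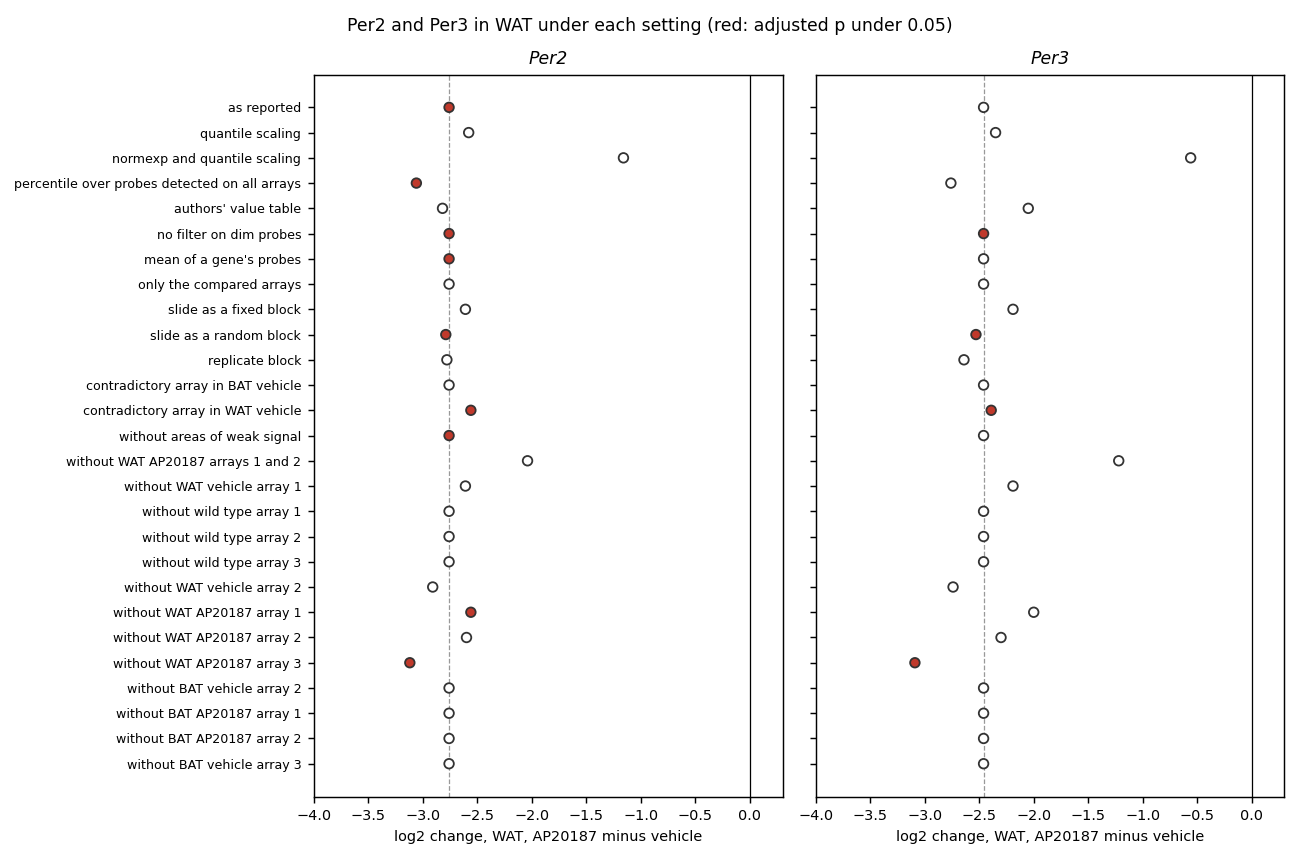
Log2 change of Per2 and Per3 in WAT, AP20187 minus vehicle (horizontal axis), under each processing alternative and with each array left out (rows); red points have adjusted p under 0.05 and the dashed line is the value as reported. All values lie below 0, and they are smallest in size after normexp correction, at -1.16 for Per2 and -0.56 for Per3.

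Vehicle-treated Fv2E-PERK WAT was set against wild type to show how far the groups differed without the ligand. None of the 8 genes was called, and 0.0245% of all features were. Every member but Per2 had the sign it had in the comparison of AP20187 with wild type, which uses the same wild-type arrays. Npas2 was undetected on 2 of those 3 arrays. The share of all features that kept their sign was not counted. The Arntl levels of 1.79 and 1.83 with vehicle lay above all 3 wild-type arrays, and the difference was 1.36 (SE 0.43, adjusted p = 0.779). Cry1 differed by 1.16 (SE 0.51, adjusted p = 0.994). Per2 differed by 0.19 (95% interval -0.91 to 1.29), with overlapping groups. Per3 and Per1 differed by -0.96 and -0.77, with adjusted p = 1.0 for both. The groups did not overlap for 6 of the 8 genes, beside 34.8% of all features, and the median size of the differences was 0.86, beside 0.21 over all features. That median includes Npas2, which passed the filter through the vehicle group alone. Npas2 differed by 1.37, or by 0.36 with dim values raised to the floor. On slide 1 alone, vehicle array 1 minus wild type was 1.34 for Arntl and 0.78 for Cry1. All comparisons with the vehicle or wild-type WAT arrays share those arrays.

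The wild-type arrays themselves differed in the clock genes. Array 1 had Arntl at 1.33, Cry1 at -3.09 and Nfil3, the D-box repressor, at 2.90, all above arrays 2 and 3, where Nfil3 was at 1.66 and 1.33. The order was turned for 3 other genes of the loops. Dbp, the D-box activator, was at 2.90, 4.76 and 4.12, the REV-ERB gene Nr1d1 at -0.31, 1.65 and 1.23, and its paralog Nr1d2 at -0.51, 0.82 and 0.69. On each of these 6 genes array 1 lay nearer to the mean of the vehicle arrays than did arrays 2 and 3. These 6 were chosen after their values were seen, and not every listed gene went that way. For Per2 array 1 was the farthest, at -1.59 against -1.19 and -1.18, beside a vehicle mean of -1.13. The same held for Bhlhe40, at 1.47 against 1.31 and 1.09, beside a vehicle mean of 0.45. The range over the 3 wild-type arrays was 1.39 for Arntl, 0.97 for Cry1, 1.97 for Nr1d1, 1.86 for Dbp, 1.57 for Nfil3 and 1.33 for Nr1d2, beside a median range of 0.31 over all features. Between 2.2% and 9.08% of features had a wider range than these genes. Per1 spanned 0.07 and Per2 0.41 on the same arrays. All 3 lie on 1 slide, and their epididymis marker means were -4.10, -4.98 and -1.77. The part of cell makeup and of other differences between the arrays in this split was not tested. The median SD of the 8 members within a group was 0.36 in wild type, beside 0.16 over all features, and 0.49 in WAT with AP20187, beside 0.39. With vehicle in WAT it was 0.19, beside 0.17. In BAT it was 0.29 beside 0.21 with AP20187, and 0.35 beside 0.23 with vehicle. Not every member was wider: in wild type Per1 (0.04) and Clock (0.12) lay below 0.16. Undetected spots of Npas2 are part of the wild-type value, and those of Npas2, Per2 and Per3 are part of the AP20187 WAT value.

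Across the 8 WAT arrays some members and other genes of the loops rose and fell together, as a description of arrays that share groups and slides. Arntl correlated with Nfil3 at r = 0.97 and with Cry1 at 0.95, and with Dbp at -0.97 and Nr1d2 at -0.94. Per2 and Per3 correlated with each other at 0.94. Both were undetected on AP20187 arrays 1 and 2, and those dim spots are part of every value for Per2 and Per3 here. Per1 was at -0.89 with Arntl and -0.90 with Cry1, and Nr1d2 was at -0.96 with Nfil3. Some pairs were weaker: Arntl with Per2 was at -0.54, and Cry2 was at 0.50 with Arntl, 0.15 with Per2 and 0.10 with Per3. Among the other loop genes, Arntl was at -0.88 with Tef and -0.75 with Nr1d1, and at 0.27 with Bhlhe40, -0.12 with Bhlhe41 and -0.42 with Hlf. The named genes with the most similar profiles over these arrays, by Pearson's r between log2 levels, were found for the 7 members detected on all 8 arrays or on all arrays of 2 of the 3 groups. They were Gabbr1 (0.993), Ctxn2 and Muc13 for Per2, and Guca2a (0.992), Plxnb3 and Plagl1 for Per3. For Arntl they were Nxf2 (0.979), Nfil3 and Zmiz1, and for Clock they were Msrb1 (0.994), Gatd3a and Zfand3. For Per1 they were Clcn2 (0.963), Snx32 and Mbd4, for Cry1 Col18a1 (0.981), Dnaja1 and Elp4, and for Cry2 Amy1 (0.985), Nlrc5 and Ugt1a6a. With 8 arrays in 3 groups such values come easily, and they carry no test.

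**Figure D4:**
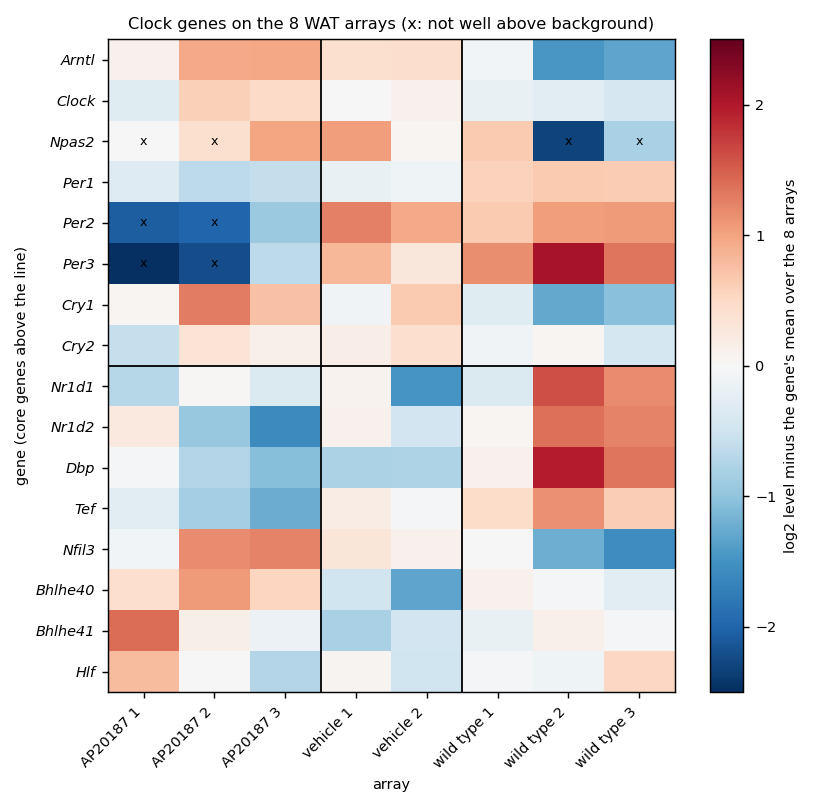
Log2 level of each gene minus its mean over the 8 WAT arrays (colour), with core genes above the line and clock-linked genes below it; columns are arrays by group, and x marks a probe not well above background. Wild-type arrays 2 and 3 are low in Arntl, Cry1 and Nfil3 and high in Dbp, Nr1d1 and Nr1d2, and Per2 and Per3 are low on the 3 AP20187 arrays.

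The wider clock pathway was read from a list of 30 genes in the second loop, the D-box loop, the kinases, the ubiquitin ligases and the protein partners, of which 29 passed the filter; Ciart, a repressor of the CLOCK:ARNTL pair that was detected on 2 of the 12 arrays, did not. In WAT after AP20187 none of the 29 was called against vehicle, beside 2.25% of all features, and 8 had an unadjusted p under 0.05, beside 22.3% of all features. Nr1d1 was at -0.67, 0.07 and -0.32 with AP20187, against 0.14 and -1.43 with vehicle, a difference of 0.34 (adjusted p = 0.758). Nr1d2 was at -0.32, -1.50 and -2.14 with AP20187, against -0.45 and -1.03 with vehicle (difference -0.58, adjusted p = 0.559). Dbp was at 2.74, 2.05 and 1.73 with AP20187, against 2.0 and 2.02 with vehicle (difference 0.16, adjusted p = 0.863). For all 3 the groups overlapped. Tef was at 4.36, 3.80 and 3.41 with AP20187, against 4.83 and 4.61 with vehicle, and its difference of -0.86 had adjusted p = 0.174. Several listed genes had more than 1 probe that passed, 12 in all, and for 0 of them did the probes differ in the direction of this change.

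In BAT after AP20187 none of the 29 was called either, beside 0.00818% of all features, and 1, the receptor gene Rora, had an unadjusted p under 0.05, beside 7.38% of all features. Nr1d1 was at 1.13 and 1.71 with AP20187, against 1.72 and 1.97 with vehicle, a difference of -0.42. Nr1d2 differed by 0.06, Dbp by -1.05 and Tef by 0.13, with adjusted p between 0.755 and 1.0. Dbp lay lower on both AP20187 arrays, at 2.17 and 2.47, than on the vehicle arrays, at 3.07 and 3.67.

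Against wild type, 3 of the 29 passed in WAT with AP20187, beside 8.88% of all features. The D-box activators Dbp and Tef fell by 1.76 (SE 0.45, adjusted p = 0.0463) and 1.53 (SE 0.29, adjusted p = 0.0277). Tef was at 4.36, 3.80 and 3.41 with AP20187, against 5.10, 5.79 and 5.26 in wild type. Csnk2b, the regulatory subunit of casein kinase 2, rose by 0.86 (SE 0.19, adjusted p = 0.0357), in a fit that lacked AP20187 array 1, where its spot was an outlier. Nfil3 was at 2.82, 4.07 and 4.13 with AP20187 and differed by 1.71 with adjusted p = 0.0564. With vehicle against wild type 0 of 29 passed. Dbp differed there by -1.92 (adjusted p = 0.661) and Nr1d1 by -1.50 (adjusted p = 0.94), the 2 genes of the list with an unadjusted p under 0.05, beside 5.01% of all features.

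BAT and WAT were compared in vehicle-treated mice, where tissue and slide cannot be told apart. None of the 8 core genes passed, beside 23.4% of all features. Of the 7 genes detected in both tissues 6 had lower levels in BAT, but every one of their 95% intervals included 0. The share of all features that were lower in BAT was not counted, and the median change over all features was 0.11. Detected spots made up 46.8% and 49.0% of the BAT vehicle arrays, against 61.2% and 64.0% of the WAT vehicle arrays. Per2 was lower by the most among the detected genes, with -1.48 and -2.93 in BAT, against -0.98 and -1.28 in WAT, a difference of -1.07 (95% interval -2.28 to 0.14, adjusted p = 0.182). Arntl differed by -0.58 and Clock by -0.36, with groups that did not overlap. With Per2 that held for 3 of the 7 genes, beside 69.0% of all features. Of the wider list 7 of 29 were called, near the share of 23.4% of all features, and 6 of them were higher in BAT, beside 14.3% of all features. Among these were Nr1d1 at 2.49 (adjusted p = 0.0285), the transcription repressor gene Bhlhe40 at 2.88 (adjusted p = 0.00299), the receptor gene Rorb at 2.31, the phosphatase subunit gene Ppp1cb at 1.96, and Nampt, of the NAD salvage pathway, at 1.48. Rora was lower by 1.06 on the log2 scale (-1.06, adjusted p = 0.0342). Rorb was detected on 1 of the 2 WAT vehicle arrays.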

How the data were processed

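Cy3-labelled RNA of 13 samples was measured on Agilent arrays of 1 colour; per the file headers their design is 028005 and their build mm9. Feature Extraction 10.7.1.1, named in the submitters' processing notes, made the deposited intensity, a signal corrected for background within each array. The authors' value table, also an intensity, equalled it within 0.1% for 99.0% to 99.2% of values, which leaves no sign of scaling or centring; low cells were blank, and column medians ran from 32.8 to 105.0.

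Outlier spots were dropped, log2 signals were set relative to each array's 75th percentile, and probes well above background on every array of a group were kept (32598 of 55681). Names came from RefSeq accessions (assembly GRCm38.p6): 26056 probes had 1 gene, 0 several and 29625 none. The brightest probe stood for each of 24445 features. limma 3.58.1 (R 4.3.3) fitted 12 arrays in 5 groups, with Benjamini-Hochberg adjustment over all features, and was tested on simulated data. For WAT with AP20187 against vehicle it recovered 22%, 60%, 72% and 90% of simulated log2 changes of 1, 2, 3 and 4. Many smaller changes would thus be missed. Dim values were raised to the lowest detected signal per array where stated. The number of arrays limits the precision.

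All 8 members were named in every comparison, and of the 30 listed pathway genes those past the threshold, with Nr1d1, Nr1d2, Dbp and Tef; other genes named were chosen after their values were seen. One gene that this rule names is not reported here. Members and lists were chosen with earlier results of these data known. Equal replicate numbers were not used to pair samples: deviations of 19 same-numbered pairs correlated between -0.22 and 0.11. With so few arrays in a group these values cannot exclude that same-numbered arrays share a mouse. No 2 arrays were identical. Alternatives covered scaling, filter, probe choice, slide, replicate block, the array with contradictory labels and left-out arrays.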

Additional observations from a re-analysis of the deposited data

Results flagged for a closer look

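Npas2 was detected on the array whose title and tissue label say BAT and whose source name says WAT, at -2.26, which is above its level on all 12 grouped arrays (-7.17 to -3.82). That array is in no group and entered no comparison of the report. Ucp1 was at -4.57 there, within the range of the WAT arrays. The mean of 8 brown adipocyte markers was 0.08, against 5.24 to 6.58 on the BAT arrays. Settings that place this array in BAT vehicle therefore add an array with WAT-like markers to a BAT group. The other 7 members lay within their range over the grouped arrays.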

How the results depend on the processing

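Per2 in WAT, AP20187 against vehicle, kept its sign in all 14 settings run and in all 12 fits with 1 array left out, at -3.06 to -1.16 and -3.12 to -2.56, and passed the threshold in 6 and 2 of them (adjusted p 0.00588 to 0.372). Per3 also kept its sign, at -2.76 to -0.56, and passed in 3 settings. Of the 8 core genes 1 passed there as reported. That count was 0 with quantile scaling, normexp with quantile scaling, the authors' value table, the stricter filter on dim probes (which left 5 core genes), only the compared arrays, slide as a fixed block, the contradictory array in BAT vehicle, and without WAT AP20187 arrays 1 and 2. It was 2 with no filter, slide as a random block and the contradictory array in WAT vehicle, and 0 to 2 with 1 array left out. Against wild type 3 core genes passed in AP20187 WAT. That count was 0 with quantile scaling, only the compared arrays, slide as a fixed block and the contradictory array in BAT vehicle, 1 without AP20187 arrays 1 and 2, and 7 with slide as a random block. It was 0 to 5 with 1 array left out. With normexp, the authors' table, the percentile over detected probes and the stricter filter the count there was 2, and with no filter and with the contradictory array in WAT vehicle it was 4. Between BAT and WAT vehicle 2 passed with normexp (Cry2, Per2), against 0 as reported. In BAT, for the difference of responses and for vehicle against wild type the count was 0 under every alternative. The random slide block had a correlation of -0.248 within slides. Slide as a fixed block was not run for BAT against WAT, since no slide holds both. Where a setting leaves 1 array in a group, that array is assumed to vary like the other groups. Fewer probes tested or fewer arrays fitted are part of several of these settings by construction; otherwise the cause was not tested.

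Whether the replicate number pairs these samples is not known. With it as a block, 0 core genes passed in WAT against vehicle and 0 against wild type. Against vehicle Per2 was then at -2.78 (adjusted p = 0.104) and Per3 at -2.64. Under that block Per1 was at -0.28 in BAT, 0.02 in the difference of responses and 0.12 between BAT and WAT, and Arntl at 0.03 in the difference, each with its sign turned.

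Of 1270 values under alternatives, 53 turned sign, 25 of them with 1 array left out; 0 of these had passed the threshold in either setting. In WAT against vehicle, Npas2 turned to 0.37 with quantile scaling, 0.03 with normexp, 0.41 with the fixed slide block and 0.44 without AP20187 arrays 1 and 2, and with the percentile over detected probes Arntl turned to -0.04 and Clock to -0.10. In BAT, normexp turned Clock to -0.02 and Cry1 to 0.02. Placing the contradictory array, whose brown fat markers lay in the WAT range, in BAT vehicle turned Clock and Cry1 to 0.00 and Per2 to -0.10. Npas2 turned to -0.01 in that setting, which is no measured change, since it was undetected on all grouped BAT arrays. In the difference of responses, Clock turned to -0.01 with quantile scaling and -0.18 with the detected percentile, Cry2 to -0.09, -0.18 and -0.12 with quantile, normexp and detected percentile, and Arntl to 0.07 with the contradictory array in BAT and 0.21 without AP20187 arrays 1 and 2. Against wild type, Cry2 in AP20187 WAT turned to -0.21, -0.28, -0.25 and -0.13 with quantile, normexp, detected percentile and the fixed slide block, and Per2 with vehicle to -0.01 with the contradictory array in WAT vehicle. With 1 array left out, ranges that crossed 0 were -0.57 to 0.41 for Npas2 in WAT against vehicle; in BAT -0.07 to 0.27 for Clock, -0.69 to 0.51 for Cry1, -0.97 to 1.01 for Per1 and -0.66 to 0.78 for Per2; in the difference -0.25 to 0.20 for Arntl, -0.07 to 0.38 for Clock, -0.10 to 1.1 for Cry1, -0.03 to 0.43 for Cry2 and -1.39 to 0.59 for Per1; -0.06 to 0.40 for Cry2 in AP20187 WAT against wild type; and -0.34 to 0.87 for Cry1 and -0.70 to 0.35 for Per1 between BAT and WAT.

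Over all features the count of calls was 549 in WAT against vehicle (0 to 5510 over the settings), 2 in BAT (0 to 4), 0 for the difference (0 to 424), 6 for vehicle against wild type (0 to 56), 2171 for AP20187 against wild type (0 to 13476) and 5731 between BAT and WAT (0 to 11153). Scaling on detected probes moved the median of all features to -0.21 in AP20187 WAT against wild type, from 0.16, and to -0.13 between BAT and WAT, from 0.11. Weak signal over background limits Npas2, Per2 and Per3 on WAT AP20187 arrays 1 and 2, and Npas2 on all BAT arrays.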
